A study of Oreochromis mossambicus with 12 samples.

Results

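Genes for chromatin-modifying enzymes and remodelers were followed in cultured tilapia leukocytes exposed to bacteria, to nitrite or to both. They were chosen by gene symbol, as every symbol that begins with kmt, kdm, hdac, setd, brd, smarc, chd, ezh, sirt, kat, prmt, dnmt or tet followed by the family's usual number or letter. The symbols matched 83 genes of the 28921 in the table. Of these, 76 averaged 1 FPKM or more across all 12 libraries and are the members described here, among 12423 genes that passed the same filter. An FPKM value is a fragment count divided by transcript length and by the total of the library, so different genes can be compared per length.

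DNA in the nucleus is wound on histones, and the tails of these proteins carry methyl and acetyl groups. Writers add the groups, erasers remove them and readers bind them, while ATP-driven remodelers slide or eject the histones, and a separate pair of enzyme families adds methyl groups to DNA itself or oxidises them. In leukocytes these enzymes are known for setting which genes can be switched on when a cell meets a microbe and for keeping precursors and mature cells distinct. The roles given below are those known for mammalian proteins of the same name.

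The cells were leukocytes of the head kidney, where bony fish make most of their blood cells, from Oreochromis mossambicus per the labels, kept overnight on collagen-coated plastic in RPMI 1640 medium with antibiotics and tilapia serum before treatment. The 4 groups received PBS, Streptococcus agalactiae killed by heat, at a multiplicity of infection of 1 (called bacteria here), sodium nitrite at 1000 μM (called nitrite), or both agents (called co-treatment), each for 12 h and with 3 libraries. Nothing in the labels ties the 3 libraries of a group to different fish or culture wells, so the p-values rest on a spread between libraries that may be technical. The bacteria were killed, so the groups model contact with bacterial material and not an infection.

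The table gave no read counts, so absolute depth is unknown. The sums of FPKM ran from 422129 to 503740. A relative depth was estimated from the FPKM values of 3569 genes. It put the deepest library at about 1.47 times the shallowest, PBS replicate 1, and at 1.17 times the next shallowest. The estimate was not separated from differences in expression or composition between libraries, so these ratios cannot be read as depth alone. PBS replicate 1 stood apart from the other libraries in having 4.98% of its FPKM sum in ribosomal protein genes, against 17.6% and 16.4% in PBS replicates 2 and 3. This share also moved with the groups, at 16.1% to 17.2% with nitrite, 9.08% to 12.4% with bacteria and 9.52% to 13.2% with co-treatment, and its part in the changes below was not tested. Libraries with the same replicate number deviated together from their group means. A fit blocked on this number is given for each member whose call with bacteria against PBS changed under it. For the other comparisons the blocked fit is given mostly as a number of calls. Leukocyte markers were present in all groups, with summed levels of 901 to 1568 FPKM for 7 B cell genes, 844 to 1466 FPKM for 4 macrophage genes and 522 to 679 FPKM for 3 neutrophil genes in PBS. Of 13 macrophage and 10 neutrophil genes listed, only these 4 and 3 were in the table. The 6 T cell genes in the table summed to 9.63 to 14.52 FPKM in PBS. The 1 erythroid gene in the table was at 0.22 to 0.55 FPKM in PBS. Of 9 stroma genes in the table, col1a1, a collagen gene of connective tissue, was listed at 0 in all 12 libraries. Together the 9 summed to 51.58 to 85.95 FPKM in PBS, and 4 of them (pdgfrb, tagln, flt1 and stab1) passed the filter.

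Expression levels of the members differed widely. The median member had a mean of 9.16 FPKM over the 12 libraries, against 8.67 FPKM for all genes tested. The arginine methyltransferase gene prmt1 had the highest mean, 86.5 FPKM. It was followed by prmt2 at 41.1 FPKM, the SWI/SNF subunit gene smarcd2 at 32.7, the ISWI remodeler gene smarca5 at 28.9, the maintenance DNA methyltransferase gene dnmt1 at 27.0 and setd3, which encodes a methyltransferase of actin, at 26.3 FPKM. Just above the filter lay kdm8 at 1.2, setd4 at 1.45 and prmt6 at 1.65 FPKM. Just under it lay hdac5 at 0.99, kat2a at 0.98 and sirt4 at 0.82 FPKM, and the other 4 symbols that did not pass were chd3, sirt3, smarcd3 and chd5. The summed level of the 76 members was 920.4 to 1167.4 FPKM in the 6 PBS and nitrite libraries and 693.2 to 818.2 FPKM in the 6 bacteria and co-treatment libraries, so the ranges did not overlap. The median log2(FPKM + 1) level of all genes did not overlap either, at 3.269 to 3.402 without bacteria and 2.876 to 3.098 with them.

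The first question was how the members responded to bacteria alone. The deacetylase gene hdac9, the Polycomb methyltransferase gene ezh1 and the acetyltransferase gene kat2b fell furthest, from means of 22.5, 11.3 and 6.53 FPKM in PBS to 4.60, 2.10 and 0.957 FPKM with bacteria, and kdm7a, a demethylase gene, rose. Of the 76 members, 23 (30.3%) passed limma's test with an adjusted p under 0.05, against 37.0% of all genes tested. In 22 of them the level was lower with bacteria, against 26.3% of all genes, and in 1 it was higher, against 10.7% of all genes. The members' share of calls in either direction was near that of all genes and is not a result about the group. Of the members' calls 4.35% were higher, against 29% of the calls of all genes, and this difference was not tested. Their median log2 change was -0.36, and that of all genes -0.29.

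The level of most genes in the table was lower with bacteria on the FPKM scale. Median-ratio scaling moved the median log2 change of all genes from -0.29 to 0.01, and the share of higher genes among all calls from 29.0% to 54.5%. With that scaling 15 members were called, 4 higher and 11 lower (background 30.9%), and the members' median was -0.03. With the replicate block 34 members were called, 3 higher and 31 lower (background 53.4%). Without PBS replicate 1 the calls were 27, 1 higher and 26 lower, which is 35.5% of the members against 39.7% of all genes. The libraries of the groups did not overlap in 28 members that were lower with bacteria (background 34.6%) and in 3 that were higher (background 13.8%).

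**Figure D1:**
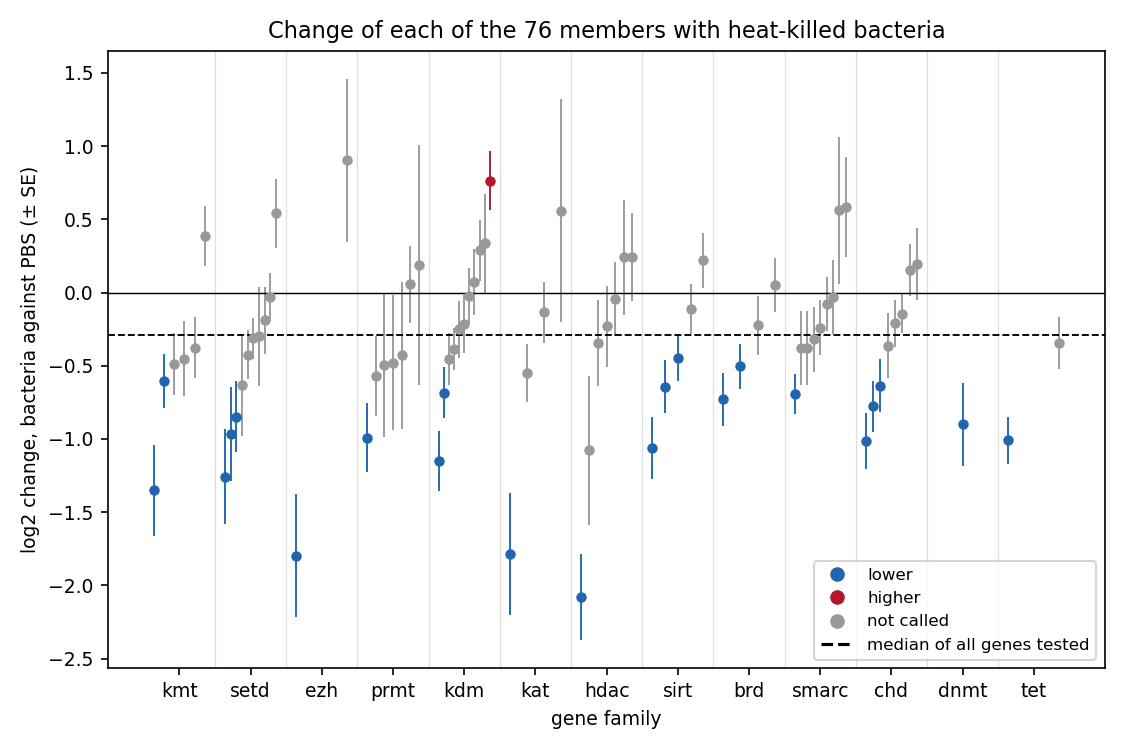
Log2 change of each of the 76 members with bacteria against PBS on the log2(FPKM + 1) scale (vertical axis, points with SE bars), ordered within gene families (horizontal axis). Blue points are the 22 members called lower, the red point is kdm7a, grey points were not called, and the dashed line is the median of all genes tested (-0.29).

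Genes of the protein methyltransferase families kmt, setd, ezh and prmt made up 25 of the members, and not all of their products act on histones. With bacteria 7 of the 25 (28.0%) were lower and 0 higher, close to the 26.3% of all genes that were lower. Their log2 changes ran from -1.80 to 0.90, with a median of -0.45. Of the pair of Polycomb enzyme genes ezh1 was called lower, and ezh2 was not called. Ezh1 and Ezh2 are alternative catalytic subunits of Polycomb repressive complex 2, which methylates histone H3 at lysine 27. In mammals Ezh2 is the form of dividing cells and Ezh1 that of resting cells.

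The level of ezh1 was 19.5, 9.44 and 4.86 FPKM in PBS replicates 1 to 3, 13.0, 9.79 and 4.56 with nitrite, 2.34, 2.02 and 1.95 with bacteria, and 1.44, 1.47 and 1.77 with co-treatment. Every library that received bacteria was below every library that did not. The fall with bacteria was -1.80 ± 0.42 on the log2 scale (SE, n = 3 and 3, adjusted p = 0.0074 in limma), and it was -1.34 ± 0.36 (adjusted p = 0.0168) without PBS replicate 1. It was called under all of the 23 alternatives.

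For ezh2 the levels were 3.84, 9.22 and 21.97 FPKM in PBS, 6.57, 8.32 and 24.9 with nitrite, 13.7, 18.8 and 24.6 with bacteria, and 17.1, 23.4 and 26.1 with co-treatment. Replicates 1 and 2 were higher with bacteria than without, replicate 3 was high in all groups, and the groups overlapped. Its log2 change was 0.90 ± 0.56 (adjusted p = 0.228 in limma), with the replicate block 0.90 ± 0.30 (adjusted p = 0.0308), and without PBS replicate 1 it was 0.35 ± 0.52 (adjusted p = 0.607). The ratio of ezh2 to ezh1 was 0.197, 0.977 and 4.52 in the PBS libraries and 5.85, 9.31 and 12.6 with bacteria, and it was 0.506, 0.85 and 5.46 with nitrite and 11.9, 15.9 and 14.7 with co-treatment. All libraries with bacteria had a higher ratio than all libraries without; the ratio was not tested.

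Summed levels of 18 proliferation markers, such as the replication helicase genes, were 261, 524 and 883 FPKM in PBS replicates 1 to 3 and 247, 388 and 378 FPKM with bacteria. In PBS the sums had the order of ezh2, and the sums with bacteria lay within the range of those in PBS except for replicate 1, which was below it. Of the 18 markers, 3 were lower (background 26.3%) and 0 higher (background 10.7%) with bacteria. Their part in the result for ezh2 was not tested.

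Among the other histone lysine methyltransferases kmt5a, which encodes the enzyme that adds the first methyl group to lysine 20 of histone H4, was at 13.3, 6.95 and 4.43 FPKM in PBS and at 2.51, 2.08 and 2.45 with bacteria. The groups did not overlap, and the change was -1.35 ± 0.31 (adjusted p = 0.0067 in limma), which was not called after quantile normalization (adjusted p = 0.07). Its relative kmt5b, whose product adds further methyl groups at the same residue, had a log2 change of -0.49 ± 0.21 (adjusted p = 0.0908, with the replicate block 0.0444). With setd7, whose product methylates histone H3 at lysine 4 and many other proteins, the levels were 7.55, 6.25 and 8.08 FPKM in PBS and 1.5, 2.4 and 3.83 with bacteria. All bacteria libraries were below all PBS libraries, with a log2 change of -1.26 ± 0.33 (adjusted p = 0.0119), and the call was lost without bacteria replicate 1 (-1.03, adjusted p = 0.0532).

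Genes for the large complexes that methylate lysine 4 of histone H3 at promoters and enhancers gave 1 call with all libraries (background 37.0%). Without PBS replicate 1, setd1b and also kmt2e, placed here by its symbol alone, were called lower too, and their values are given at the end. The level of kmt2b was lower by a log2 change of -0.61 ± 0.19 (adjusted p = 0.0267 in limma), but the call was lost without bacteria replicate 1, 2 or 3 (adjusted p = 0.0728, 0.0598 and 0.0713) and the change was -0.40 without PBS replicate 1. The call was also lost with either scaling (0.336 and 0.299). The enhancer methyltransferase gene kmt2d had -0.38 ± 0.21 (adjusted p = 0.178, with the replicate block 0.0185), and kmt2c 0.39 ± 0.20 (adjusted p = 0.157). For setd2, whose product methylates lysine 36 of histone H3 along transcribed genes, the levels were 23.2, 8.67 and 10.7 FPKM in PBS and 7.39, 4.79 and 6.6 with bacteria. PBS replicate 1 was well above the other PBS libraries, and the groups did not overlap. The log2 change was -0.96 ± 0.32 (adjusted p = 0.0364), -0.57 (0.0784) without PBS replicate 1, and it was not called without bacteria replicate 1, 2 or 3 (0.0577, 0.122 and 0.068) or with either scaling (0.187 and 0.199).

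The setd4 gene fell from 2.87, 2.12 and 1.39 FPKM in PBS to 0.67, 0.93 and 0.54 with bacteria (log2 -0.85 ± 0.24, adjusted p = 0.0198 in limma). All its bacteria libraries were under 1 FPKM, so it passed the filter only through its levels without bacteria. The call was lost without PBS replicate 1 or 2 (adjusted p = 0.0543 and 0.0506), without bacteria replicate 1 or 3 (0.0594 and 0.0634) and with either scaling (0.0686 and 0.198). For setdb1, whose product methylates lysine 9 of histone H3 at silenced repeats, the change was -0.63 ± 0.35 (adjusted p = 0.175, with the replicate block 0.00681), and for setd9 it was -0.43 ± 0.17 (0.0693, with the block 0.0409). The actin methyltransferase gene setd3 was at 13.9, 23.2 and 29.0 FPKM in PBS and 30.5, 31.9 and 31.3 with bacteria. These groups did not overlap, but PBS replicate 3 lay close to the bacteria libraries, and the log2 change of 0.54 ± 0.24 had an adjusted p of 0.0944, or 0.0331 with the replicate block and 0.235 without PBS replicate 1.

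Of the 7 arginine methyltransferase genes only prmt2 was called in limma's test (background 37.0%). Its levels were 62.3, 49.4 and 56.9 FPKM in PBS and 25.6, 32.1 and 25.7 with bacteria, which did not overlap. For prmt2 this gave a log2 change of -0.99 ± 0.23 (adjusted p = 0.00783), and with median-ratio scaling -0.64 (0.0628). The prmt1 gene, whose product makes most of the asymmetric dimethylarginine in mammalian cells, was at 71.0, 70.6 and 153 FPKM in PBS and 43.5, 76.5 and 84.1 with bacteria, an overlapping pattern with a log2 change of -0.48 ± 0.46 (adjusted p = 0.448). The log2 change of prmt3 was -0.50 ± 0.49, of prmt6 0.06 ± 0.26 and of prmt9 -0.57 ± 0.27, none called, and prmt9 was called with the replicate block (adjusted p = 0.0162).

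Of 11 histone lysine demethylase genes 2 were lower (background 26.3%) and 1 was higher (background 10.7%) with bacteria, with a median log2 change of -0.21. The kdm4a gene, whose product removes methyl groups from lysines 9 and 36 of histone H3, was at 12.1, 9.11 and 7.48 FPKM in PBS and at 3.06, 3.89 and 4.18 with bacteria. The groups did not overlap, and the log2 change of -1.15 ± 0.21 (adjusted p = 0.0018 in limma) was called under all 23 alternatives. In kdm8 the fall was from 1.9, 1.31 and 2.08 FPKM to 0.69, 0.88 and 0.57 (log2 -0.68 ± 0.17, adjusted p = 0.0108), which was not called after quantile normalization (0.217). Every bacteria library of kdm8 was under 1 FPKM, so the gene passed the filter only through its levels without bacteria. Its fall is not independent of that filter.

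The demethylase gene kdm7a was the member called higher. In mammals its product removes methyl groups from lysines 9 and 27 of histone H3. It was at 5.71, 5.52 and 5.34 FPKM in PBS, 6.18, 6.07 and 5.41 with nitrite, 12.4, 11.0 and 7.45 with bacteria, and 11.7, 9.5 and 7.66 with co-treatment. The libraries without bacteria lay close together and all of them were below the libraries with bacteria, of which replicate 3 was the lowest in each group. This rise was 0.76 ± 0.20 on the log2 scale (adjusted p = 0.0132 in limma), with median-ratio scaling 1.08 (0.00842). The call was lost without bacteria replicate 1 (0.62, adjusted p = 0.0594) or 2 (0.71, 0.0501), and when only the PBS and bacteria libraries were fitted (0.0535).

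The H3 lysine 27 demethylase genes kdm6a and kdm6b were not called. The kdm6b gene, known in mouse macrophages as a gene switched on by bacterial products, was at 16.0, 17.5 and 24.3 FPKM in PBS and at 34.0, 27.3 and 15.2 with bacteria. Replicates 1 and 2 were higher with bacteria and replicate 3 was lower, and the log2 change was 0.34 ± 0.34 (adjusted p = 0.469). For kdm6a the change was -0.45 ± 0.18 (adjusted p = 0.0661), with the replicate block 0.0486 and without PBS replicate 1 -0.63 (0.00705). The H3 lysine 4 demethylase gene kdm5c had -0.39 ± 0.15 (0.0599, with the block 0.023).

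**Figure D2:**
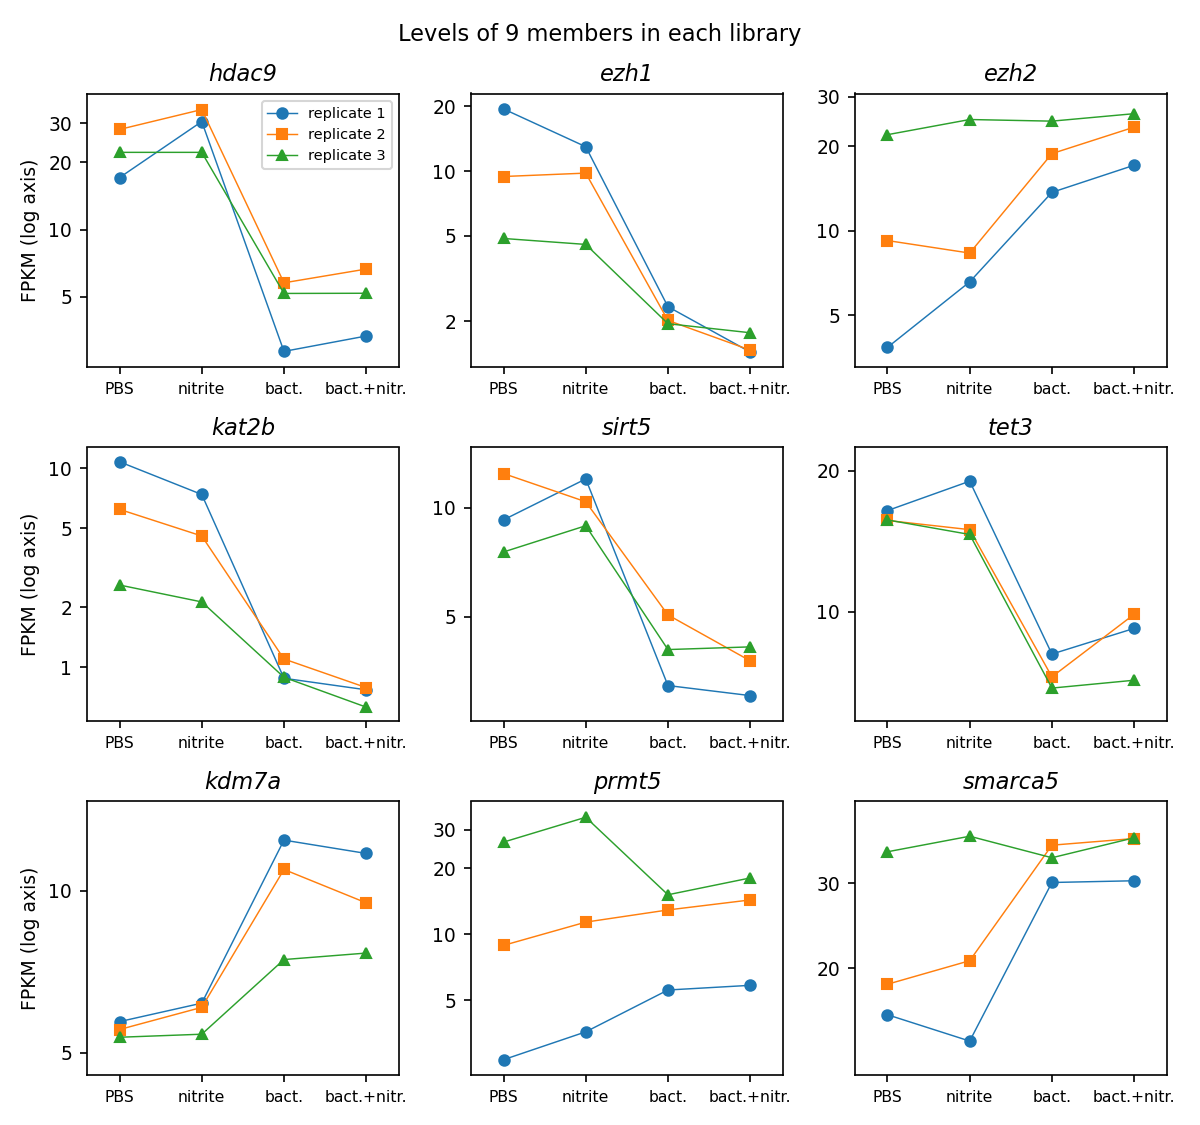
FPKM on a log axis (vertical) of 9 members in the 4 groups (horizontal), with the libraries of 1 replicate number joined by a line. The libraries with bacteria lie below all others for hdac9, ezh1, kat2b, sirt5 and tet3 and above all others for kdm7a, while prmt5 separates by replicate number.

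Acetyl groups on histones are set by acetyltransferases and removed by deacetylases. Of 4 acetyltransferase genes 1 was called (background 37.0%). The kat2b gene, whose product PCAF is a coactivator that acetylates histones and transcription factors, was at 10.8, 6.22 and 2.59 FPKM in PBS, 7.39, 4.57 and 2.13 with nitrite, 0.88, 1.1 and 0.89 with bacteria, and 0.77, 0.79 and 0.63 with co-treatment. All libraries with bacteria were lower than all libraries without, and PBS replicate 1 was the highest. The mean of kat2b was 0.957 FPKM with bacteria and 0.73 with co-treatment, so it passed the filter of 1 FPKM through the groups without bacteria. The log2 change with bacteria was -1.79 ± 0.42 (adjusted p = 0.00733 in limma), without PBS replicate 1 -1.38 ± 0.39 (0.0202). For kat5, whose product TIP60 acetylates histone H4, the change was -0.55 ± 0.20 (0.0514, with the replicate block 0.0445), and for kat8, which encodes the enzyme of histone H4 lysine 16, -0.14 ± 0.21 (0.643).

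The kat14 gene, which encodes a subunit of the ATAC acetyltransferase complex, was listed at 0.11 FPKM in PBS replicate 1 and at 12.8 and 13.3 in PBS replicates 2 and 3. With bacteria it was at 6.31, 8.98 and 8.62 FPKM. The sign of its change therefore turned on a single library: the log2 change was 0.56 ± 0.76 (adjusted p = 0.598 in limma), and without PBS replicate 1 it was -0.66 ± 0.17 (0.0142).

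Of the 12 deacetylase genes, counting histone deacetylases and sirtuins, 4 (33.3%) were lower and 0 higher with bacteria, against 37.0% of all genes called and 26.3% lower, with a median log2 change of -0.29. The class IIa deacetylase gene hdac9, whose product represses genes together with MEF2 transcription factors, was at 17.1, 28.1 and 22.2 FPKM in PBS, 30.5, 34.5 and 22.2 with nitrite, 2.85, 5.78 and 5.18 with bacteria, and 3.34, 6.66 and 5.19 with co-treatment. The highest library with bacteria, at 6.66 FPKM, was far below the lowest library without, at 17.1. The log2 change of -2.08 ± 0.29 (adjusted p = 0.000446 in limma) was the largest fall among the members and was called under all 23 alternatives, with -2.25 ± 0.31 without PBS replicate 1.

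The other 6 histone deacetylase genes were not called with bacteria. The class IV gene hdac11 was at 12.0, 3.68 and 1.69 FPKM in PBS and at 1.55, 1.59 and 1.63 with bacteria, so that PBS replicate 1 stood far above the others; the log2 change was -1.08 ± 0.51 (adjusted p = 0.118) and without PBS replicate 1 -0.45 ± 0.39 (0.366). For hdac2 and hdac3, which encode catalytic subunits of corepressor complexes, the changes were -0.35 ± 0.29 and -0.23 ± 0.28 (adjusted p = 0.387 and 0.548), and hdac3 was at 0.11 with median-ratio scaling.

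Sirtuins are deacylases that use NAD. The sirt5 gene, whose product removes succinyl and related groups from proteins of mitochondria, was at 9.26, 12.4 and 7.55 FPKM in PBS, 12.0, 10.4 and 8.92 with nitrite, 3.23, 5.06 and 4.06 with bacteria, and 3.03, 3.78 and 4.13 with co-treatment. No library with bacteria reached the lowest library without. The log2 change was -1.06 ± 0.21 (adjusted p = 0.0034 in limma) and was called under all 23 alternatives. The sirt6 gene, whose product deacetylates histone H3 and acts in DNA repair, fell from 3.75, 3.4 and 3.82 FPKM to 2.04, 1.85 and 2.06 (log2 -0.64 ± 0.18, adjusted p = 0.0188), a call lost with either scaling (0.116 and 0.405) and without bacteria replicate 2 (0.0632). In sirt2, a tubulin deacetylase gene, the change was -0.45 ± 0.16 (0.046), which was called under only 7 of 23 alternatives; it was lost without PBS replicate 1, 2 or 3 (adjusted p = 0.0785, 0.0738 and 0.0537) and without bacteria replicate 1 or 2 (0.137 and 0.133). It was also lost without nitrite replicate 1, 2 or 3 (0.0607, 0.066 and 0.0554) and without co-treatment replicate 1 or 2 (0.0503 and 0.0659), which enter only the shared spread. For sirt1 the change was 0.22 ± 0.19 (0.388).

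Of 4 genes for bromodomain proteins, which read acetyl-lysine, 2 were lower (background 26.3%). The brd9 gene, which encodes a subunit of a SWI/SNF complex, fell from 13.3, 8.96 and 10.2 FPKM to 5.26, 6.28 and 6.66 (log2 -0.73 ± 0.18, adjusted p = 0.00989 in limma), a call lost with either scaling (0.0891 and 0.116). The brd1 gene, which encodes a scaffold of acetyltransferase complexes, fell from 5.9, 7.02 and 6.79 FPKM to 3.96, 3.98 and 5.11 (-0.51 ± 0.15, 0.0255), also lost with either scaling (0.303 and 0.514) and without PBS replicate 2 or 3 (0.0749 and 0.0612) or bacteria replicate 1 or 2 (0.0885 and 0.0908). Changes of brd3 and brd7 were -0.23 ± 0.20 and 0.05 ± 0.19 (0.408 and 0.856). With median-ratio scaling brd3 was at 0.11, and brd7 was at -0.02 without PBS replicate 2.

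Remodelers were the second largest role, with 17 genes, of which 4 (23.5%, against 26.3% of all genes) were lower and 0 higher with bacteria and the median log2 change was -0.24. The chd1l gene, which encodes a remodeler recruited to DNA damage by poly(ADP-ribose), was at 4.65, 4.43 and 4.56 FPKM in PBS and at 1.36, 2.24 and 1.69 with bacteria. The PBS libraries differed little among themselves and all lay above the bacteria libraries, with a log2 change of -1.02 ± 0.19 (adjusted p = 0.00231 in limma). In chd6 the fall was from 3.28, 3.01 and 2.93 FPKM to 1.1, 1.6 and 1.45 (-0.78 ± 0.17, 0.00571, after quantile normalization 0.103 and with the highest transcript 0.153). The chd2 gene fell from 36.1, 28.1 and 24.9 FPKM to 19.7, 19.0 and 16.9 (-0.64 ± 0.18, 0.019), a call lost with either scaling (0.365 and 0.0775) and without bacteria replicate 3 (0.0641).

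Among SWI/SNF genes smarcd2, which in human and mouse is needed for the maturation of granulocytes, was the most even. It was at 43.4, 42.6 and 41.1 FPKM in PBS, 33.6, 41.9 and 38.2 with nitrite, 25.3, 26.0 and 26.1 with bacteria, and 22.4, 27.5 and 24.1 with co-treatment. The libraries with and without bacteria did not overlap, and 93.3% of the variation of its log2 level lay between the groups. The log2 change with bacteria was -0.69 ± 0.14 (adjusted p = 0.00314 in limma) and -0.35 (0.0848) with median-ratio scaling.

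The catalytic subunit genes were not called. The smarca4 gene, which encodes the SWI/SNF ATPase BRG1, was at 5.24, 24.5 and 32.0 FPKM in PBS and 21.0, 27.3 and 26.2 with bacteria. PBS replicate 1 was far below the others, and the log2 change of 0.56 ± 0.50 (adjusted p = 0.413 in limma) became -0.18 ± 0.25 without it. The smarca5 gene was at 16.0, 18.5 and 34.9 FPKM in PBS and 30.1, 36.0 and 33.9 with bacteria, a log2 change of 0.58 ± 0.34 (0.202). The log2 change was -0.38 ± 0.25 for smarcc1 (0.267, with the replicate block 0.0227) and -0.38 ± 0.26 for smarce1 (0.269). It was 0.19 ± 0.25 for chd4 (0.575), which encodes the ATPase of the NuRD complex.

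DNA methylation had 3 genes, of which dnmt1 and tet3 were lower with bacteria (background 26.3%). The tet3 gene, whose product oxidises methylcytosine on the way to its removal, was at 16.4, 15.7 and 15.7 FPKM in PBS, 19.0, 15.0 and 14.6 with nitrite, 8.12, 7.26 and 6.87 with bacteria, and 9.21, 9.87 and 7.14 with co-treatment. The groups with and without bacteria were far apart beside their own spread, and the log2 change was -1.01 ± 0.16 (adjusted p = 0.00096 in limma). This holds for the sum of its 5 transcripts: with the highest transcript alone the change was 0.19 ± 0.79 (0.881), since that transcript was listed at 0 in PBS replicate 1, where another held 15.9 FPKM.

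The dnmt1 gene, which encodes the enzyme that copies DNA methylation at replication, was at 41.5, 26.5 and 47.9 FPKM in PBS, 23.5, 24.3 and 48.1 with nitrite, 18.6, 22.6 and 18.0 with bacteria, and 17.9, 18.9 and 15.8 with co-treatment. The highest library with bacteria lay just under the lowest without. The log2 change was -0.90 ± 0.28 (adjusted p = 0.0294 in limma), with median-ratio scaling -0.56 (0.152) and with library weights -0.37 (0.0653). The call was also lost without the filter on low genes (0.0501). Of single libraries, it was lost without PBS replicate 1 (-0.83, 0.0645) or 3 (-0.73, 0.0905) and without bacteria replicate 1 (-0.86, 0.0851) or 3 (-0.84, 0.0811). For tet2 the change was -0.34 ± 0.18 (0.154).

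Of the 23 members called, 13 kept the call without any 1 of the PBS or bacteria libraries, and 6 kept it under all alternatives that were run: hdac9, ezh1, kat2b, kdm4a, sirt5 and chd1l. The refit with a filter of 5 FPKM did not include kat2b and chd1l. The kat2b gene also passed the filter of 1 FPKM only through the groups without bacteria, so its fall is not independent of that filter. Kept calls were not counted over all genes, so whether these counts are particular to the members was not tested. When only the PBS and bacteria libraries were fitted, 9 of the 23 lost the call, namely kmt2b, setd2, setd4, kdm8, kdm7a, sirt2, brd1, brd9 and chd2, with adjusted p between 0.0512 and 0.136. With median-ratio scaling and the replicate block together, which reads each member relative to the library as a whole and within pairs, 10 members were higher (background 23.5%) and 17 lower, 27 in all (background 47.3%). The 10 were chd1, chd4, ezh2, hdac10, kdm5a, kdm7a, kmt2c, setd3, sirt1 and smarca5, of which ezh2 had a log2 change of 1.23 (adjusted p = 0.0113) and smarca5 0.93 (0.013). On the deposited scale kdm7a alone among them was called without the block.

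A second, separate comparison of the same kind is that of co-treatment with nitrite, in which bacteria were added to nitrite-treated cells. It shares no library with the comparison of bacteria and PBS, though replicate numbers and the estimate of the spread are common to both. Of the 76 members 23 were called (background 33.9%), 22 lower (background 23.3%) and 1 higher (background 10.6%), and the median log2 change was -0.42, against -0.32 for all genes. The libraries did not overlap in 42 members that were lower (background 38.8%) and in 3 that were higher (background 15.7%). In 19 genes the level was lower in both comparisons, 86.4% of each list of 22, and kdm7a was higher in both. Of all genes 2488 were lower in both, 76.2% of the 3264 lower with bacteria against PBS and 86.0% of the 2892 lower with co-treatment against nitrite. The log2 changes of the 76 members in the separate comparisons had a Pearson r of 0.91, and those of all genes tested 0.93, which is a description across genes and not across replicates.

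The largest falls in nitrite-treated cells were in hdac9 (log2 -2.33 ± 0.29, adjusted p = 0.000235 in limma), ezh1 (-1.88 ± 0.42, 0.00627), setd7 (-1.42 ± 0.33, 0.00697), sirt5 (-1.30 ± 0.21, 0.00115), prmt2 (-1.22 ± 0.23, 0.00277) and kat2b. The last of these had -1.61 ± 0.42 (0.0131), a call lost after quantile normalization (0.0738) and without nitrite replicate 1 (-1.27, 0.054). The mean of kat2b with co-treatment was 0.73 FPKM, under the filter of 1 FPKM. Means of kdm8 and setd4, also called lower here, were under 1 FPKM with co-treatment too. The falls of these 3 genes are not independent of the filter. The kdm4a gene had -1.07 ± 0.21 (0.00277), tet3 -0.82 ± 0.16 (0.00319), chd1l -0.85 ± 0.19 (0.00645), chd6 -0.80 ± 0.17 (0.00538) and smarcd2 -0.60 ± 0.14 (0.00701). With median-ratio scaling the calls of smarcd2 (0.16) and tet3 (0.0768) were lost. After quantile normalization those of chd1l (0.134) and chd6 (0.132) were lost. With the highest transcript kdm4a (0.21), tet3 (0.346), chd1l (0.0707) and chd6 (0.063) were not called. The ezh2 gene had 0.90 ± 0.56 (0.233, with the replicate block 0.0323). Called here but not with bacteria alone were kdm6a (-0.63 ± 0.18, 0.0182), setd9 (-0.60 ± 0.17, 0.0189) and kmt2e, a gene of the kmt2 family named after its values were seen (-0.84 ± 0.26, 0.0268). The first of these was not called without nitrite replicate 1 (0.0677) or co-treatment replicate 1 (0.0626), and setd9 was not called without the same libraries (0.0694 and 0.0735). With either scaling the calls of kdm6a (0.201 and 0.18) and setd9 (0.116 and 0.582) were lost too. Without nitrite replicate 1 or 2 or co-treatment replicate 1 or 2 the call of kmt2e was lost. In PBS replicate 1 this gene was at 7.17 FPKM against 16.8 and 15.6 in the other PBS libraries. The rise of kdm7a was 0.61 ± 0.20 (0.0374), and this call was lost without nitrite replicate 1, 2 or 3 (0.0722, 0.0846 and 0.0925), co-treatment replicate 1 or 2 (0.14 and 0.0864), PBS replicate 2 (0.0501) or bacteria replicate 2 (0.0541). That the calls differ between the comparisons is not shown by these values, since no interaction was called.

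Of the genes called lower with bacteria alone, dnmt1 (adjusted p = 0.0615 in limma), kmt2b and setd2 were not called with co-treatment against nitrite. Of the 23 calls in this comparison 5 were kept under all alternatives that were run, which was not counted over all genes. Those of chd2, sirt2, kdm8 and brd9 were among the calls lost without single libraries. The number of calls in this comparison depended on single libraries. It was 11 without co-treatment replicate 1 (23.6% of all genes called), 12 without nitrite replicate 1 (25.0%), and 15 without nitrite replicate 2 (23.4%) or co-treatment replicate 2 (26.7%). Outside the comparison, leaving out PBS replicate 1, which enters only the spread, gave 31 (46.6%). With the replicate block 41 members were called, 2 higher and 39 lower (background 50.9%), with median-ratio scaling 12, 3 higher and 9 lower (background 29.4%), and with both 23, 8 higher (background 22.9%) and 15 lower, against 45.0% of all genes in either direction. All of these 8 higher members were also among the 10 higher with bacteria against PBS in that fit. They include ezh2, kdm7a, setd3, smarca5 and chd4. In both comparisons 13 members were lower. Such overlaps were not counted over all genes in that fit, so whether they are particular to the members was not tested.

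**Figure D3:**
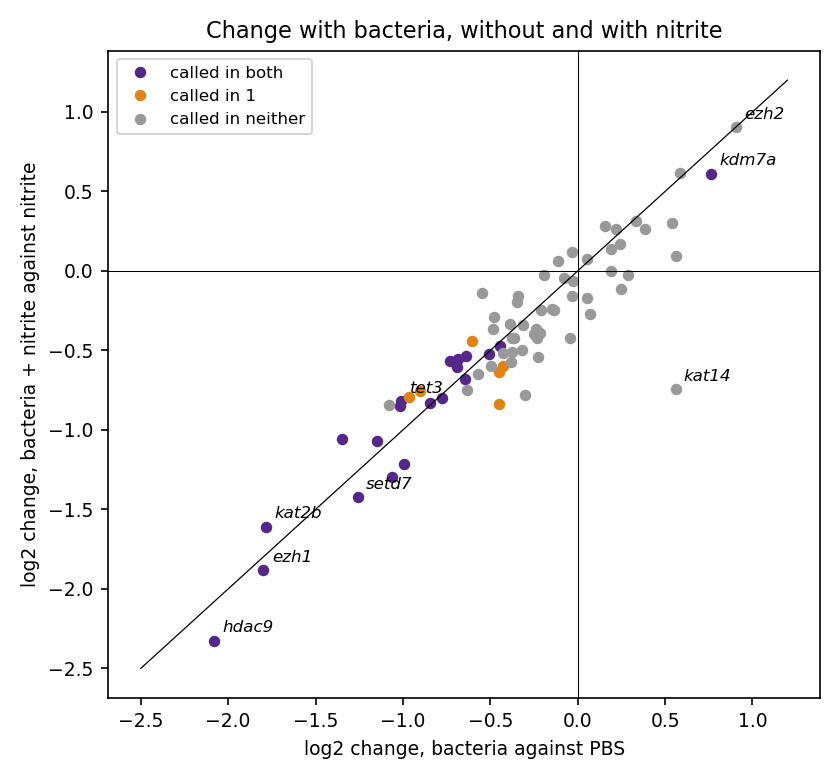
Log2 change of each of the 76 members with bacteria against PBS (horizontal axis) and with co-treatment against nitrite (vertical axis), comparisons that share no library. Points lie along the line of equal change (Pearson r of 0.91), and kat14, whose PBS value rests on a replicate listed at 0.11 FPKM, lies off it.

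Co-treatment was also set against PBS, a comparison that shares its PBS libraries with that of bacteria alone. Of the 76 members 27 were called (background 39.0%), 26 lower (background 27.7%) and 1 higher (background 11.4%), with a median log2 change of -0.39 against -0.29 for all genes. With the replicate block 38 were called (background 54.2%) and with median-ratio scaling 17, 6 higher and 11 lower (background 33.5%). The fall of hdac9 was -1.96 ± 0.29 (adjusted p = 0.00057 in limma), of ezh1 -2.08 ± 0.42 (0.00322), of kat2b -1.96 ± 0.42 (0.00412), of prmt2 -1.23 ± 0.23 (0.00229), of kdm4a -1.23 ± 0.21 (0.00112) and of sirt5 -1.19 ± 0.21 (0.00164). That of dnmt1 was -1.06 ± 0.28 (0.0132), a call lost with median-ratio scaling (0.069). The falls of kat2b, kdm8 and setd4 are again not independent of the filter, since their means with co-treatment were under 1 FPKM. In all 28 members were called in at least 1 of the 3 comparisons with bacteria and 48 in none, which is 36.8% of the members called against 44.9% of all genes.

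**Figure D4:**
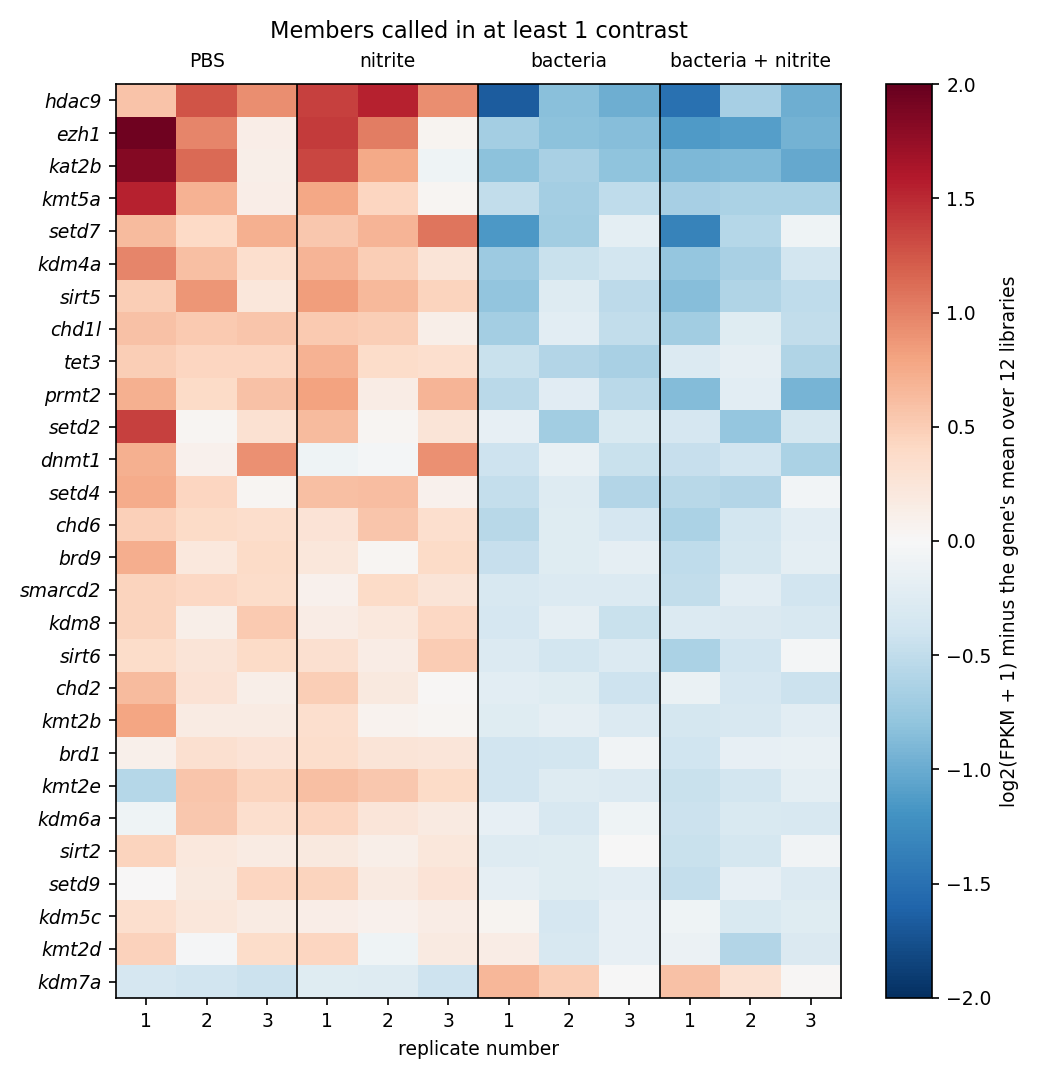
Levels of the 28 members called in at least 1 of the 3 comparisons with bacteria (rows) in the 12 libraries (columns), as log2(FPKM + 1) minus the gene's mean over the libraries. The 6 PBS and nitrite libraries are mostly above the mean and the 6 bacteria and co-treatment libraries below it, with kdm7a the other way.

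Nitrite was tested without and with bacteria. Against PBS 0 of the 76 members were called, and the share of all genes called was 0%; 0 members and 74 genes had an unadjusted p under 0.05. The members' median log2 change was 0.03. Changes ran from -0.46 ± 0.51 in hdac11 to 0.59 ± 0.50 in smarca4 and 1.35 ± 0.76 in kat14, and the top pair both had a low value in PBS replicate 1. For hdac9 the change was 0.36 ± 0.29, for ezh1 -0.19 ± 0.42, for ezh2 0.23 ± 0.56, for tet3 0.01 ± 0.16 and for dnmt1 -0.30 ± 0.28. These errors leave room for changes of some size, so the absence of calls does not show that the members were unaffected.

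Co-treatment against bacteria alone also gave 0 calls among the members, while 1 gene of all those tested (0.00805%) was called, loc100692258, which is no member and was named after its values were seen. Here 0 members and 156 genes had an unadjusted p under 0.05 in limma. The log2 changes of the members lay between -0.28 ± 0.42 in ezh1 and 0.39 ± 0.23 in setd6, whose product methylates an NF-kB subunit. For the interaction, which asks whether nitrite altered the change with bacteria, 0 members were called, and the share of all genes called was 0.00805%, the same gene; 0 members and 50 genes had an unadjusted p under 0.05. The interaction was -0.24 ± 0.41 for hdac9, -0.09 ± 0.60 for ezh1, 0.19 ± 0.23 for tet3 and -0.15 ± 0.29 for kdm7a, and the largest in size was -1.30 ± 1.08 for kat14.

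The members differed in what their levels followed. Over the 12 libraries the median member had 47.5% of the variation of its log2 level between the groups and 23.0% between the replicate numbers. In 22 members the replicate number held more than the group. Of these 18 had their highest mean in the libraries numbered 3, 3 in those numbered 1 and 1 in those numbered 2. The shares of variation were not computed for all genes, so whether they are particular to the members was not tested. Over all genes tested, libraries of the same number correlated at 0.416 to 0.919 in their deviations from group means. The symmetric arginine methyltransferase gene prmt5, named after its values were seen, was at 2.68, 8.9 and 26.3 FPKM in PBS, 3.59, 11.4 and 34.2 with nitrite, 5.57, 12.9 and 15.1 with bacteria, and 5.85, 14.3 and 18.1 with co-treatment. In every group its replicate 1 was the lowest and its replicate 3 the highest, so that 85.8% of its variation lay between replicate numbers and 2.09% between groups.

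Other members of this kind were the H3 lysine 36 demethylase gene kdm2a (83.6%, highest in number 1), prmt7 (78.8%), hdac10 (78.7%), hdac2 (76.4%), prmt6 (72.5%), hdac3 (71.6%), chd4 (71.3%), prmt1 (70.6%) and prmt3 (68.0%), where the value is the share of variation between replicate numbers; kdm2a, prmt7 and hdac10 were named after their values were seen. The group of arginine methyltransferases thus held 5 of the 22. In nitrite replicates 1 to 3 the proliferation markers summed to 366, 448 and 924 FPKM, and with co-treatment to 232, 381 and 338 FPKM, so the libraries numbered 1 were the lowest in each group, as for prmt5. The part of dividing cells in these patterns was not tested.

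**Figure D5:**
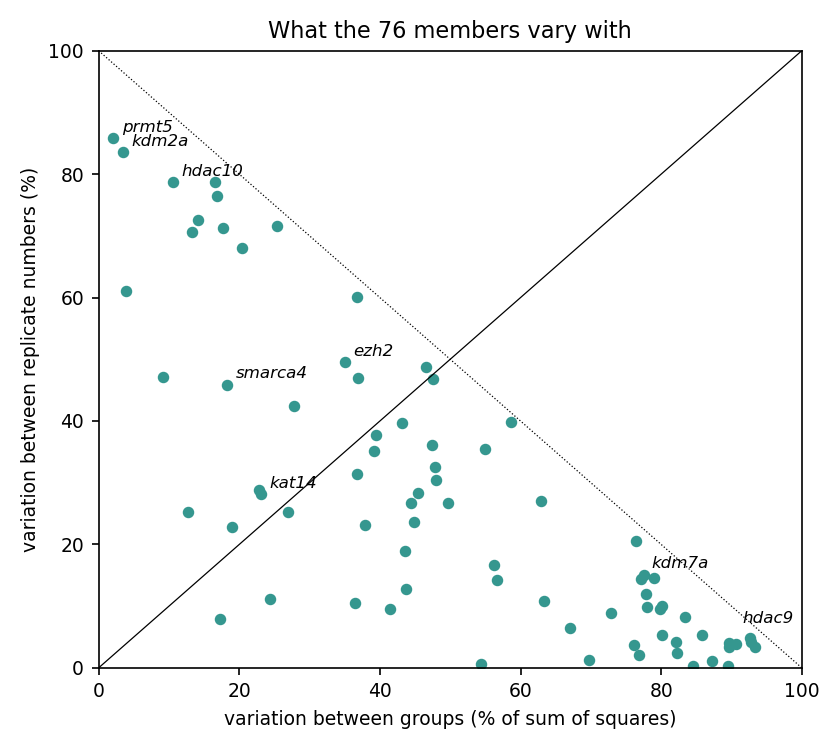
Share of the variation of each member's log2(FPKM + 1) level that lies between the 4 groups (horizontal axis, percent) and between the 3 replicate numbers (vertical axis, percent), with 1 point per member. Above the solid line lie the 22 members that vary more with the replicate number, such as prmt5 at 85.8%, and at the lower right lie members such as hdac9 that vary with the group.

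Genes of the same complexes whose symbols the name patterns do not match were read from 7 lists. Of 238 symbols listed 165 were in the table and 157 were tested, and with bacteria against PBS 60 were lower and 4 higher, 40.8% against 37.0% of all genes, with a median log2 change of -0.36. Of all genes 26.3% were lower and 10.7% higher, which is the background for each list, and no list was tested as a set. Among 21 other Polycomb genes 10 were lower and 0 higher (median -0.65), such as the Polycomb repressive complex 1 gene pcgf1 (-1.60 ± 0.27, adjusted p = 0.00124 in limma). Among 28 demethylase and reader genes 13 were lower and 1 higher (median -0.61), with uhrf2, a reader of modified cytosine (-1.71 ± 0.23, 0.000327), and cbx1, which encodes a heterochromatin protein (-1.92 ± 0.27, 0.000423).

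Among 24 acetyltransferase complex genes 10 were lower and 0 higher (median -0.50), against 26.3% and 10.7% of all genes here and for the lists that follow. In this list jade2 was at -1.51 ± 0.23 (adjusted p = 0.000689 in limma) and the coactivator gene ncoa2 at -0.88 ± 0.18 (0.00351). Of 20 corepressor genes 7 were lower and 1 higher (median -0.18), with ncor1, the corepressor that binds hdac3, at -1.28 ± 0.18 (0.000488) and hdgf at -1.57 ± 0.25 (0.000817). Among 22 other methyltransferase genes 7 were lower and 1 higher (median -0.27), with the H3 lysine 9 enzyme gene ehmt1 at -1.30 ± 0.25 (0.00265) and ash1l at -0.83 ± 0.17 (0.00327). Of 28 remodeler genes 8 were lower and 1 higher (median -0.21), with shprh at -0.98 ± 0.17 (0.00125) and baz2b at -0.89 ± 0.16 (0.0019), and of 15 histone chaperone genes 5 were lower and 0 higher (median -0.36), with anp32a at -1.36 ± 0.29 (0.00467) and anp32b at -0.98 ± 0.24 (0.00875). The 4 that were higher, named after their values were seen, were prdm2 (0.41 ± 0.14), tbl1xr1 (0.52 ± 0.14), actl6a (1.48 ± 0.41), which encodes an actin-related subunit of SWI/SNF and other complexes, and jmjd1c (0.84 ± 0.27).

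Markers of cell types moved with bacteria as well. Of 5 progenitor genes tested 3 were lower, cebpa (-2.08 ± 0.26, adjusted p = 0.000221 in limma), myb (-1.39 ± 0.18, 0.000317) and hmga2 (-1.61 ± 0.27, 0.00132), and the summed level of the list was 240 to 347 FPKM in PBS and 66.3 to 86.8 with bacteria. Of the macrophage genes 3 of 4 were lower, of the thrombocyte genes 3 of 5, of the B cell genes 2 of 7, and of the stroma genes 3 of 4 with 1 higher. Of the neutrophil genes 1 of 3 was higher and of the T cell genes 1 of 5. Of all genes 26.3% were lower and 10.7% higher. The summed neutrophil genes were at 522 to 679 FPKM in PBS and 660 to 1263 with bacteria. In bulk samples fewer cells of a type and less RNA per cell cannot be told apart, and the part of these markers in the changes of the members was not tested.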

How the data were processed

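RNA of 12 libraries was sequenced on an Illumina HiSeq instrument after Trizol extraction and TruSeq library preparation, per the labels. The submitters' processing notes name Trimmomatic 0.30, HISAT2 2.0.1 and HTSeq 0.6.1. Which build, annotation and FPKM program were used is not given in the sources used here. The authors deposited FPKM values for 58070 transcripts, which hold no counts, so no count test was run and absolute depth is unknown. Transcripts were summed per symbol. The 12423 genes averaging 1 FPKM or more were fitted as log2(FPKM + 1), a scale that understates changes of low genes, with limma 3.58.1 in R 4.3.3 over all 4 groups (trended empirical Bayes, 8 residual degrees of freedom). Adjusted p-values follow Benjamini and Hochberg over all these genes, and calls are those under 0.05. Errors are SE of the fit.

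Replicate numbers come from the sample titles. The 18 same-number pairs correlated at 0.416 to 0.919 in their deviations from group means (36 other pairs, -0.684 to -0.0044), so the numbers pair the libraries; the blocked fit is an alternative, as are other pseudocounts (0.1, 3), filters (none, 5 FPKM), scalings (median-ratio and quantile, called either scaling in the text), the highest transcript per symbol, library weights, only the groups compared, and each library left out.

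The members and lists were chosen with earlier results of these data known. The rule for named genes takes up to 4 members per family with the smallest adjusted p with bacteria, the 6 highest, 20 preset names, the members next to the filter and 2 genes per partner list; it names 53 of the 76 members. Named outside it, after their values were seen, were chd1, hdac10, kdm2a, kdm5a, kmt2e, prmt5, prmt7, setd1b and setd6. Some genes that the rule names are not reported here. Of the preset names hdac1, brd2, kmt2a and smarcb1 were not found under those symbols and were not analysed here, and 18784 symbols are LOC identifiers without a name, so further copies of a family may be missed. Reads shared between near-identical copies were not traced. The fit was tested on simulated data, where it missed some of the changes that were put in. The simulated libraries varied independently, so that test does not cover the deviations shared by libraries of the same number.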

Additional observations from a re-analysis of the deposited data

How the results depend on the processing

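With bacteria against PBS the 23 members called became 15 with median-ratio scaling, 14 with quantile normalization, 14 when only the groups compared were fitted, 50 with library weights, 34 with the replicate block and 27 with the block and median-ratio scaling; leaving out libraries gave 16 to 27. The share of all genes called moved alike, from 37.0% to 30.9%, 27.4%, 24.7%, 66.2%, 53.4% and 47.3% in that order. Without single libraries that share ran from 25.0% to 39.7%. Co-treatment against PBS (27) gave 17, 15, 14, 45, 38 and 30 in that order of settings. The shares of all genes were 39.0%, then 33.5%, 29.5%, 26.6%, 61.3%, 54.2% and 48.8%. Without single libraries this comparison gave 19 to 32 (all genes 29.6% to 42.1%). Co-treatment against nitrite (23) gave 12, 11, 25, 49, 41 and 23, also 15 with a filter of 5 FPKM. The shares of all genes were 33.9%, then 29.4%, 25.1%, 37.5%, 61.0%, 50.9% and 45.0%, and 34.2% with that filter. Without single libraries this comparison gave 11 to 31 (all genes 23.4% to 46.6%). Nitrite against PBS, co-treatment against bacteria and the interaction gave 0 under all alternatives run (fitting only the groups compared was not run for the interaction, which uses all groups).

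The median log2 change of the members stayed negative in the 3 comparisons with bacteria. Against PBS, -0.355 became -0.269 with a pseudocount of 3, -0.032 with median-ratio scaling (also with the block), -0.080 with quantile normalization and -0.251 with the highest transcript, and -0.421 to -0.199 without single libraries. For co-treatment against PBS it became -0.302, -0.075 (also with the block) and -0.089, and -0.490 to -0.247 without single libraries; against nitrite -0.111 (also with the block), -0.127, and -0.477 to -0.357. For the interaction the range without single libraries was -0.137 to 0.038.

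Of the 72 called results of named members, 1362 refits kept the call, 266 lost it and 2 changed sign, both tet3 with the highest transcript (0.189 with bacteria, 0.217 with co-treatment against PBS). Of 32 not called, 60 refits gained a call, 652 did not and 16 changed sign. These were brd3 (0.106), hdac3 (0.107) and kat8 (0.195) with median-ratio scaling, with or without the block; kat8 (0.094) and smarce1 (0.001) with quantile normalization; kmt2c (-0.128) and smarcc1 (1.126) with the highest transcript; kat14 (-0.437) with library weights; kat14 (-0.661), prmt6 (-0.170) and smarca4 (-0.177) without PBS replicate 1; brd7 (-0.018) without PBS replicate 2; and prmt6 (-0.057) without bacteria replicate 3. Without single libraries the changes ran from -0.018 to 0.101 in brd7, -0.661 to 1.184 in kat14, -0.170 to 0.282 in prmt6 and -0.177 to 1.024 in smarca4. The cause was not tested. The replicate block ended 0 members' calls and added 11 with bacteria against PBS, 18 with co-treatment against nitrite and 11 with co-treatment against PBS. Over all genes it raised the share called from 37.0% to 53.4%, from 33.9% to 50.9% and from 39.0% to 54.2% in that order. FPKM without counts give no depth, so no limit of detection can be set for the low members.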

Other observations

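The transcript that carried a member's level differed between libraries in a few genes. Of the 47 members with several transcripts (194 in all 76 members, up to 9 in 1 gene), the transcript with the highest mean held under 10% of the gene's level in 2 genes in PBS replicate 1, smarcc1 and tet3, and in 0 to 3 genes in each of the other libraries. In PBS replicate 1 the leading smarcc1 transcript was at 0.01 FPKM and the other at 19.1 FPKM, whereas in PBS replicates 2 and 3 the leading one was at 18.2 and 22.8 FPKM and the other at 7.42 and 9.0. For tet3 the leading transcript was listed at 0 in PBS replicate 1 and at 12.8 and 11.7 FPKM in the others, and the transcript at 15.9 FPKM in replicate 1 was at 1.96 and 1.38. The gene sums of tet3 in the PBS libraries lay between 15.7 and 16.4 FPKM.

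Without PBS replicate 1, setd1b had a log2 change with bacteria of -0.80 ± 0.15 (adjusted p = 0.0037 in limma) and kmt2e one of -0.81 ± 0.13 (0.00146). With all libraries the changes were -0.30 ± 0.34 (0.525) and -0.45 ± 0.26 (0.189). The family of setd1b acts at lysine 4 of histone H3, and kmt2e was placed beside it by its symbol alone. Both were named after their values were seen.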
